A study of Mus musculus with 51 samples.

Results

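The regions described here are promoter sites of meiotic recombination that were bound by the recombinase DMC1 in mouse testis both with and without the chromatin remodeller HELLS. They were chosen from 2 deposited peak lists, 1 of Hells het (heterozygous) testis and 1 of Hells CKO (conditional knockout) testis. An autosomal het peak was kept when it overlapped a CKO peak by at least 1 bp and also reached the 1 kb on either side of an annotated mm10 transcription start site (TSS). This left 671 shared promoter peaks, 4.55% of the 14759 autosomal het peaks and 41.7% of the 1610 het peaks that overlapped a CKO peak. Among the 2197 het peaks at promoters they made up 30.5%, the other 1526 being het-only. In the CKO list, 8361 promoter peaks were CKO-only. The lists carry no score and 1 merged list stands for 2 libraries of each genotype, so the presence, width and position of the peaks are described without a test.

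In meiotic prophase, SPO11 cuts both DNA strands, and DMC1 coats the resected ends, so that its ChIP signal maps where breaks were made. In mice the breaks are placed by PRDM9, a zinc-finger protein that trimethylates histone H3 at lysine 4 (H3K4me3) beside the motif it binds, and different Prdm9 alleles bind different motifs. HELLS, also called LSH, is a SNF2-family remodeller that works with PRDM9 at its sites. Gene promoters carry H3K4me3 placed by other enzymes, and in mice that lack PRDM9 breaks form largely at such promoters.

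Germ cells for the chromatin assays came from animals of 12 to 14 days post-partum, the DMC1 testes from animals of 6 weeks. For H3K4me3 ChIP there were 3 libraries of Hells CKO, 2 of Spo11/Spo11 and 1 each of Hells wt and Spo11/+. ATAC, which reads open chromatin with a transposase, covered Hells CKO (n = 3) and Hells wt (n = 2), C57BL/6J (B6, n = 2) and B6-Prdm9CAST-KI (KI, n = 2), a B6 strain with the CAST allele of Prdm9. H3K9ac ChIP covered B6 (n = 3), KI (n = 2) and Spo11/Spo11 (n = 1). The (B6xCAST)F1 hybrid, which holds a B6 and a CAST copy of each autosome, gave 2 ATAC libraries and 1 H3K9ac library. HELLS ChIP was made on KI testis, also from animals of 12 to 14 days (n = 2, with 1 IgG and 1 input). The Cre driver of the Hells CKO is not given in the sources used here. Whether 2 libraries of a group stem from 2 animals is not given in the labels, and the p-values therefore cover library-to-library spread that may be technical in origin.

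Counts in regions ran from 13321006 to 42007820 per H3K4me3 library, from 6416704 to 11352108 per Hells ATAC library, from 27952728 to 34572929 per B6 or KI ATAC library and from 13195275 to 30233934 per H3K9ac library. The labelled germ cells were checked against marker genes. In H3K4me3, promoters of all 7 meiotic markers had a region (median 37.2 CPM, counts scaled to library size), as did all 5 markers of spermatogonia (median 45.2 CPM). But so did all 5 Sertoli markers (median 103 CPM) and all 4 stromal and endothelial markers (1.32 to 107 CPM, the highest at Pdgfra). Regions also lay at 1 of 4 Leydig markers (4.89 CPM) and 1 of 3 blood markers (1.87 CPM). Sertoli and meiotic medians were 58.1 and 28.4 CPM in Hells ATAC, 75.1 and 37.1 in H3K9ac, and 27.8 and 32.3 in the B6 and KI ATAC. In Hells ATAC the blood marker Cd68 had a region at 93.5 CPM, while Csf1r had 3.1 CPM and Ptprc had no region. Cd68 had no region in H3K4me3, H3K9ac or the B6 and KI ATAC. The part of those cells in the results below was not tested. H3K9ac of B6 replicate 2 stood apart at recombination sites, as given with that assay. Library numbers in the labels run in separate series for the B6 and KI ATAC libraries, so series and strain cannot be told apart there. The H3K9ac labels are letter codes, BV, CG and CH for B6 and CJ and CK for KI, and give no batch.

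The rule has 2 thresholds. The smallest overlap kept was 11 bp, at Emilin1, and the nearest het promoter peak left out, at Krtap7-1, ended 12 bp short of a CKO peak. The farthest TSS kept lay 998 bp beyond the peak edge, at Ptbp2, and the nearest left out lay 1019 bp away, at Cog1. Of the 671 peaks, 456 (68%) contained a TSS, 572 (85.2%) were assigned to a protein-coding gene, and 188 lay within reach of at least 2 genes. Several peaks share a target: the 671 name 636 genes, and 30 CKO peaks overlapped at least 2 of them.

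Shared peaks of the 2 largest chromatin states differed in sequence, and an example set of each is printed, from the RefSeq GRCm38.p6 (mm10) genome. The 2 sets show different windows and mark different words, so they cannot be set against each other. The first set is the 250 bases at the centre of the het peak for 4 peaks in chromatin state 7, a class of chromatin described with the positions, chosen because they hold a word that most state 7 centres lack, on the plus strand: Gm11278 at chr13:21878819-21879068, Gm49193 at chr14:87161309-87161558, Acat1 at chr9:53585156-53585405 and Pole at chr5:110288721-110288970. Capitals mark the words, 10 bases long, that were most concentrated at the centres of het peaks away from promoters.
Gm11278: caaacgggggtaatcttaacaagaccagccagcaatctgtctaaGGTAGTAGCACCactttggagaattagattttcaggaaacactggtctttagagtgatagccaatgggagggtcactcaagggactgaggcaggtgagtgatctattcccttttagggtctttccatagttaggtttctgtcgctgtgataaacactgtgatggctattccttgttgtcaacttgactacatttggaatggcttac
Gm49193: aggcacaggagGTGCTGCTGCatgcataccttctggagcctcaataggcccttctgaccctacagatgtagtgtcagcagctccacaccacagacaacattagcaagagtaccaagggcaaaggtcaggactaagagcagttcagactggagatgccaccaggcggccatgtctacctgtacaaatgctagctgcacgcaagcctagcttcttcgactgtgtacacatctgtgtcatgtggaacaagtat
Acat1: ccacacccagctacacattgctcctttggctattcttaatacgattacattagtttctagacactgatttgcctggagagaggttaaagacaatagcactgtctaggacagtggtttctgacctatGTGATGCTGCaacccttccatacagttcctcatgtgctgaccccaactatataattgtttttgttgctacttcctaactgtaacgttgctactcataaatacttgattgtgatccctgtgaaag
Pole: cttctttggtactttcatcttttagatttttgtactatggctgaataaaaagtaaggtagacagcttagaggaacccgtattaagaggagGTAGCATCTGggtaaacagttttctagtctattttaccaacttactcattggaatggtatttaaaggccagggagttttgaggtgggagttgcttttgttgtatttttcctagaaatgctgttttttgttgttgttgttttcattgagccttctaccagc

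The second set is the 250 bases before the TSS of 2 genes whose shared peak lies in state 1, chosen because they hold a GC box, written in the direction of transcription: Plk1 at chr7:122159189-122159438 on the plus strand and Srsf7 at chr17:80206858-80207107 on the minus strand. Capitals mark GGGCGG, the GC box bound by SP1-family factors, its reverse complement CCGCCC, and CCAAT.
Plk1: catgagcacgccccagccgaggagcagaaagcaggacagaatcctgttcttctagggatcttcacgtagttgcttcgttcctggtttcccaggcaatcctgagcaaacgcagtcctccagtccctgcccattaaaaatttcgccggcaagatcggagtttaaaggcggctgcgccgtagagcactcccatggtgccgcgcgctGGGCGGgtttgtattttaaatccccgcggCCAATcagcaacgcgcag
Srsf7: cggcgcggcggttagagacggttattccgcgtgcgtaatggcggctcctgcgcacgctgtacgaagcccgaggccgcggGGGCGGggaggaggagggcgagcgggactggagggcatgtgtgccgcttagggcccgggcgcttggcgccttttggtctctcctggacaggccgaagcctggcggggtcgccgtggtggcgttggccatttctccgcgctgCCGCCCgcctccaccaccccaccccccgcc

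The words were taken from the 11623 het-only peaks away from promoters, none of which is a shared promoter peak, by the ratio of their counts in the central 250 bases to their counts plus 1 at 1000 to 1200 bases away, on both strands. Only words with at least 50 central counts were ranked. The word with the highest ratio, GGTGCTACTA (50 central counts against 1), lay in 4 of the 671 shared centres (0.596%), in 0.459% of het-only promoter peaks, in none of the 8361 CKO-only promoter peaks and in 0.0159% of all 125891 TSS windows of that length. The next 19 words were CAGTAGCATC, GGTGCTACCA, CAGATGCTAC, AGAAGCTACT, AGATGCTACT, GGTGCTGCTA, GGTAGCACCA, CAGTAGCTTC, AGGTGCTACT, AAGCTACTGC, AGGTGCTGCC, GGTAGTAGCA, CAGCAGCATC, CAGGTGCTGC, CAGTAGCACC, GGTAGCAGCA, GCAGCAGCAC, GCAGCATCAC and GCAGCACCAC, many of which overlap one another. At least 1 of the 20 lay in 39 shared centres (5.81%), against 10.9% of het-only promoter centres, 1.06% of CKO-only promoter centres and 1.46% of TSS windows. Among shared peaks the share was 3.19% in state 1 (14 of 439), 10.1% in state 7 (10 of 99) and 23.5% in state 6 (8 of 34). A match is a description of letters and not a binding site.

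Base composition followed the same division. In state 1 the het centres had a median GC content of 51.6% and the CKO centres of the same peaks 66.4%, with ratios of observed to expected CpG of 0.61 and 0.84. State 7 was poorer in both: 42.4% GC at het centres and 45.2% at CKO centres, with CpG ratios of 0.19 and 0.28. In the window from 250 bases before to 50 after the TSS, searched on both strands, GGGCGG lay in 66.1% of state 1 and 13.1% of state 7 shared promoters, against 63.1% of CKO-only promoters, 10.2% of het-only promoters and 31% of all TSSs. The ETS-type word CCGGAAG lay in 19.1% of state 1 and 8.08% of state 7 windows (8.44% of all TSSs), and TATAAA in 3.42% and 17.2% (13.7% of all TSSs). CCAAT lay in 31.2% of shared promoters (35.4% of all TSSs), GCATGCG in 4.04% (3.25%) and TGACGTC in 4.04% (2.87%).

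The 2 kinds also differed in the width and position of their DMC1 peaks. The study's own segmentation divides the genome into 11 chromatin states computed from B6 histone marks. Each peak was given the state holding most of its bases. State 1 covers 30.6% of all TSSs and held 439 shared peaks (65.4%), 87.8% of CKO-only promoter peaks and 7.4% of het-only promoter peaks. State 7 covers 0.584% of autosomal bases and 0.606% of TSSs. It held 99 shared peaks (14.8%), 41.1% of het-only peaks away from promoters, 40.4% of het-only promoter peaks and 0.0957% of CKO-only promoter peaks. States 6, 11 and 2 held 34, 36 and 29 shared peaks, and 34 lay in other states. By the state at the peak centre, 403 fell in state 1 and 166 in state 7.

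At state 1 promoters the CKO peak was the wide one. Its median width was 3701 bp against 1344 bp for the het peak, it was wider at 389 of 439 (88.6%), and 329 het peaks (74.9%) lay wholly inside CKO peaks. Het centres lay a median of 418 bp from the nearest TSS and CKO centres 156 bp. In state 7 the order turned: het peaks had a median of 3817 bp and CKO peaks 1495 bp, the CKO peak was wider at 8 of 99, and none of the 99 het peaks lay wholly inside a CKO peak. There the het centre was 1571 bp from the nearest TSS and the CKO centre 1161 bp. The rule asks only that a het peak reach the 1 kb beside a TSS, so the centre of a wide peak can lie farther away. How much of the difference in distance follows from width was not tested. Over all 671 peaks the centres of the 2 lists were 414 bp apart (median). Nbn, which encodes a subunit of the MRE11 complex that processes breaks, shows the first form, with a het peak of 1145 bp inside a CKO peak of 3192 bp. Atp1b1, which encodes the beta subunit of the sodium pump, shows the second, with a het peak of 5111 bp and a CKO peak of 914 bp, their centres 436 bp apart.

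**Figure D1:**
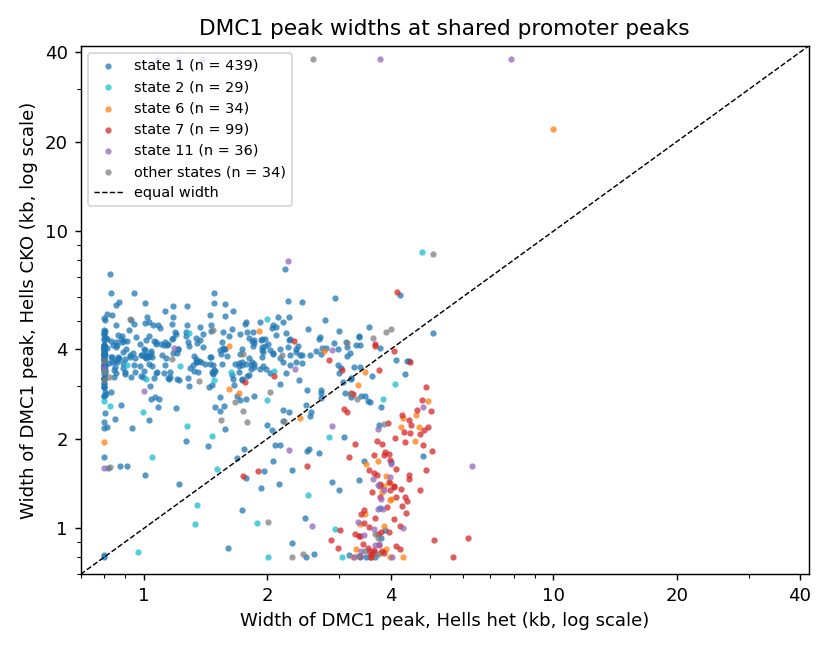
Width of the het DMC1 peak (x axis, kb, log scale) against width of the overlapping CKO peak (y axis, kb, log scale) for the 671 shared promoter peaks, 1 point a peak, coloured by chromatin state, with equal width as a dashed line. State 1 points lie mostly above the line (389 of 439) and state 7 points mostly below it (8 of 99 above).

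H3K4me3 fell in Hells CKO at one kind of shared promoter peak and was not called changed at nearly all of the other. With edgeR's quasi-likelihood test (Benjamini-Hochberg adjusted p below 0.05), 143 of the 620 regions that represent shared peaks fell in Hells CKO relative to Hells wt (23.1%), beside 11.7% of all 78959 regions. The share depends on the overlap rule. With at least 50% of the het peak covered by the CKO peak it was 18 of 423 (4.26%). That is below the share of all regions but above the 3.53% of all promoter regions. In state 7 the CKO peak covered a median of 31.8% of the het peak (upper quartile 44.9%), so that rule drops most of state 7. Under the main rule, H3K4me3 was lower at 91 of 99 in state 7, with a median log2 difference of -2.34. State 6 had 24 of 31 (median -2.39) and state 11 had 19 of 27 (median -2.38). In state 1 it was 2 of 406, with a median of 0.40 against -0.02 over all regions. None of the 620 was called higher, where 0.0279% of all regions were; 13 had an unadjusted p below 0.05 in that direction and DESeq2 called 33. Without Hells CKO replicate 2, 105 were called higher, 99 of them among the 406 of state 1. The median was 0.35 at CKO-only promoters and -2.28 at het-only promoters, of which 846 of 1311 were lower.

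The changes formed separate groups rather than a range. Of the 645 shared peaks with a region, 141 had a log2 difference below -1.5, 17 lay between -1.5 and -0.5, and 487 lay above. The group contrast rests on 1 Hells wt library, whose spread was taken from the other groups. Against the Hells CKO library of the same library series, the state 7 median was -1.93 (94 of 99 below 0) and the state 1 median 0.12.

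**Figure D2:**
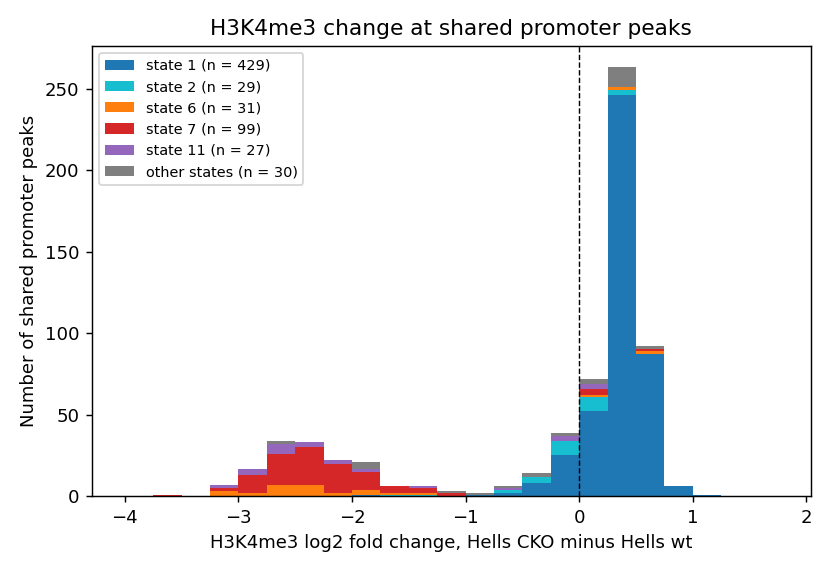
Histogram of the H3K4me3 log2 difference, Hells CKO minus Hells wt, for 645 shared promoter peaks (y axis, number of peaks), stacked by chromatin state. State 7 fills most of the mode near -2.3 and state 1 the mode near 0.4, with 17 peaks between -1.5 and -0.5.

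By library, state 7 stood at a median of 7.79 CPM in Hells wt, 17.9 in Spo11/+, 16.1 and 14.9 in Spo11/Spo11, and 1.71, 1.65 and 1.10 in Hells CKO. All 3 Hells CKO libraries were below all 4 HELLS-competent ones, the Spo11/Spo11 libraries, which make no SPO11 breaks, included. Among the competent libraries, Hells wt was the lowest. State 1 stood at 47.0 CPM in Hells wt, 59.4 in Spo11/+, 57.6 and 61.7 in Spo11/Spo11, and 74.0, 51.5 and 63.4 in Hells CKO, so the groups overlapped. In bulk libraries, fewer cells with the mark and less of it per cell cannot be told apart.

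**Figure D3:**
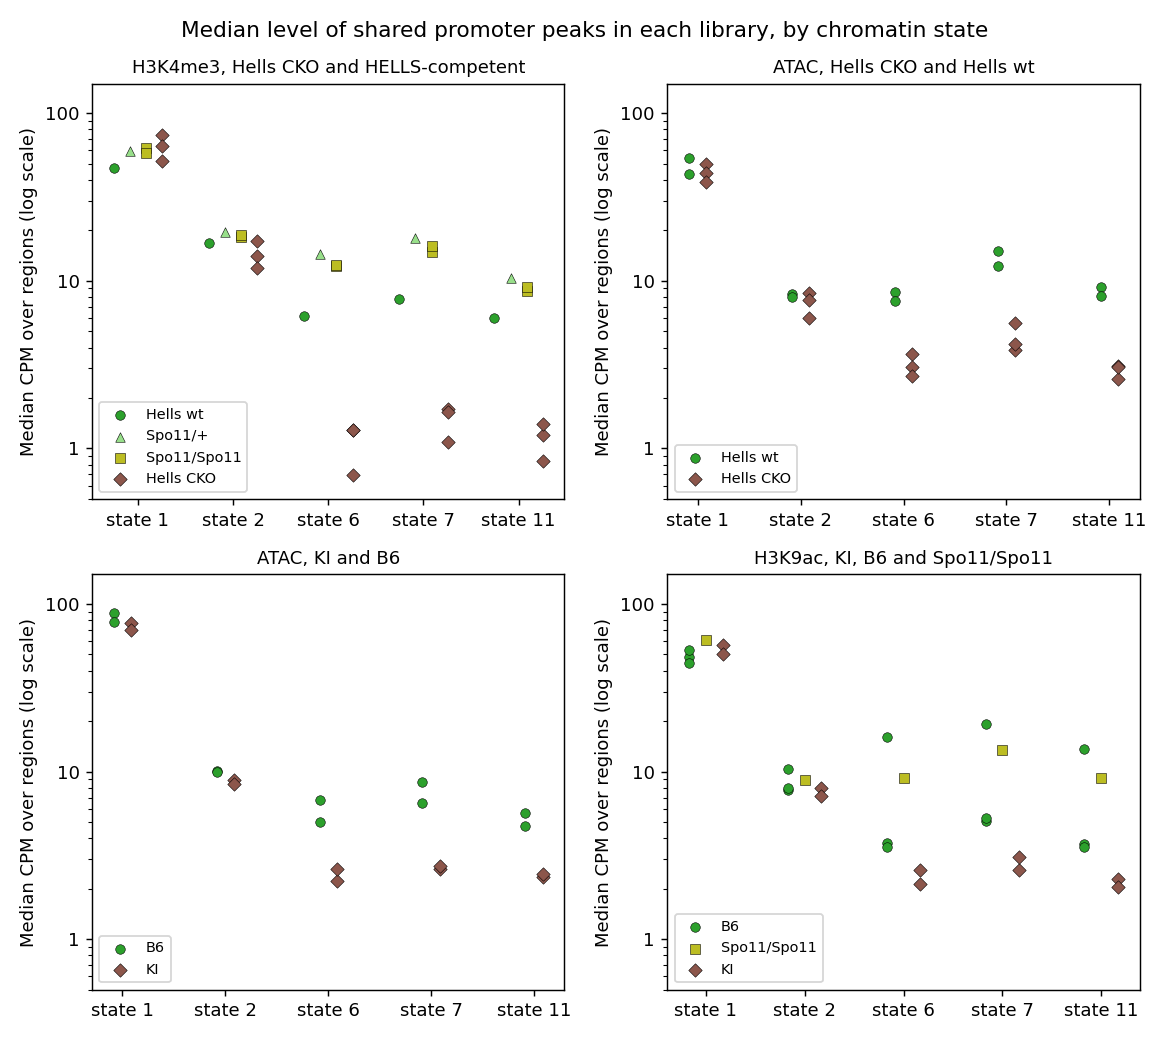
Median level of shared promoter peaks (y axis, CPM, log scale) in each library for chromatin states 1, 2, 6, 7 and 11, in 4 panels for H3K4me3, Hells ATAC, B6 and KI ATAC, and H3K9ac; 1 symbol a library. In state 7 the Hells CKO symbols (1.10 to 1.71 for H3K4me3) lie below all others, and the B6 symbols of H3K9ac spread from 5.06 to 19.3.

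Atp1b1 shows the state 7 pattern of H3K4me3 at its TSS (het peak chr1:164440987-164446097, centred 177 bp inside the gene, in an intron). Its H3K4me3 was 14.2 CPM in Hells wt, 31.7 in Spo11/+, 29.3 and 24.7 in Spo11/Spo11, and 2.61, 2.53 and 2.16 in Hells CKO. The Hells CKO values were the 3 lowest, and the log2 difference from Hells wt was -2.55 ± 0.23 (SE; edgeR quasi-likelihood test, adjusted p = 0.000335). Other peaks among those with the lowest p were at 4930447K03Rik (-2.92), Dok2, an adaptor of receptor tyrosine kinases (-2.85), Pde9a, a cyclic GMP phosphodiesterase (-3.07), Pear1, a platelet receptor (-2.55), Gm47596 (-2.69) and Rrp1b, a nucleolar protein of ribosome assembly (-2.77). All of these lie in state 7.

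The 2 state 1 peaks called lower were at Dusp26, a dual-specificity phosphatase (-0.90 ± 0.21, SE), and Lta4h, which encodes leukotriene A4 hydrolase (-1.85 ± 0.48, SE), named after their values were seen. At Dusp26, H3K4me3 was 36.6 CPM in Hells wt, 40.7 in Spo11/+, 43.2 in both Spo11/Spo11 libraries, and 18.1, 18.2 and 22.4 in Hells CKO. Every Hells CKO value was below every other value. Its het peak (4798 bp) was wider than its CKO peak (1751 bp), unlike 88.6% of state 1. The 3 peaks with the lowest p in the other direction, Pex2 (0.68), Iws1 (0.68) and Hist1h4k (0.59), did not pass (edgeR quasi-likelihood test, adjusted p of 0.186, 0.222 and 0.172).

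Open chromatin was lower without HELLS at part of the same sites. Of 519 regions tested by ATAC, 36 fell in Hells CKO relative to Hells wt (6.94%; edgeR quasi-likelihood test, adjusted p below 0.05), beside 0.382% of all 95033 regions. State 7 held 26 of them, of 67 tested (median log2 difference -1.36), state 11 held 5 of 13 and state 6 held 4 of 17. Only peaks with an ATAC region could be tested, which were 545 of 671. They were 67 of 99 in state 7, 14 of 36 in state 11, 17 of 34 in state 6 and 415 of 439 in state 1. These shares therefore hold only for peaks open enough to have a region. No state 1 region of 392 passed (median -0.15; 6 lower at an unadjusted p below 0.05, and 1 with DESeq2). With library series as a block, 76 shared peaks were lower, 49 of them in state 7 and 6 in state 1. With at least 50% of the het peak covered, 6 of 396 were lower (1.52%). No region in the table passed as higher (0% of all), and among the shared peaks none did with DESeq2 or at an unadjusted p below 0.05. The number rests on single libraries: no shared peak passed without Hells CKO replicate 3 and 12 without Hells wt replicate 1, while the state 7 median was then -1.35 and -1.18. Within the 2 library series that hold both genotypes, the state 7 median was -1.18 (64 of 67 below 0) and -1.31 (57 of 67).

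At Gm49193, a transcribed processed pseudogene, ATAC was 30.3 and 19.4 CPM in Hells wt and 6.02, 5.59 and 5.73 in Hells CKO. The groups did not overlap, and the log2 difference was -2.09 ± 0.26 (SE; edgeR quasi-likelihood test, adjusted p = 0.00433). Vmn1r184, a vomeronasal receptor gene, had 10.4 and 5.91 CPM in Hells wt and 1.36, 1.31 and 1.08 in Hells CKO. That was a log2 difference of -2.66 ± 0.37 (SE; edgeR quasi-likelihood test, adjusted p = 0.00469). Rnf17, a germ-cell Tudor-domain gene, fell by 1.95, Dock3 by 1.98 and Gm31822 by 2.20. Ighv5-9-1 and Ighv5-12, immunoglobulin variable segments, fell by 2.46 and 2.28; they and Vmn1r184 belong to families of near-identical copies, where reads may be split between members.

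Most shared peaks with lower H3K4me3 in Hells CKO also had less open chromatin in the strain with the CAST allele of Prdm9. Of 570 regions tested by ATAC in KI against B6, 91 were lower in KI (16%, beside 2.27% of all 81887 regions) and 1 was higher (0.175%, beside 7.14%), by edgeR's quasi-likelihood test. State 7 had 57 lower of 84 (median log2 difference -1.45), state 6 had 15 of 22 (-1.33), state 11 had 8 of 17 (-0.99) and state 1 had 9 of 400 (-0.20, against 0.02 over all regions). With at least 50% of the het peak covered it was 12 of 415 (2.89%). Here too only peaks with an ATAC region were tested, 596 of 671, with 84 of 99 in state 7 and 423 of 439 in state 1. The count was 142 without B6 replicate 1 and 225 without B6 replicate 2, with 52 and 118 of them in state 1. These libraries share none with the Hells assays. Of the 113 peaks with lower H3K4me3 in Hells CKO that were tested, 83 (73.5%) were lower in KI, and these were 91.2% of the 91 peaks lower in KI that had an H3K4me3 value. Of the 481 tested peaks without an H3K4me3 call, 8 (1.66%) were lower in KI. Across the 594 peaks with both values, Pearson's r was 0.765 and Spearman's rho 0.509, as a description across peaks, which fall into 2 groups and are not replicates.

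**Figure D4:**
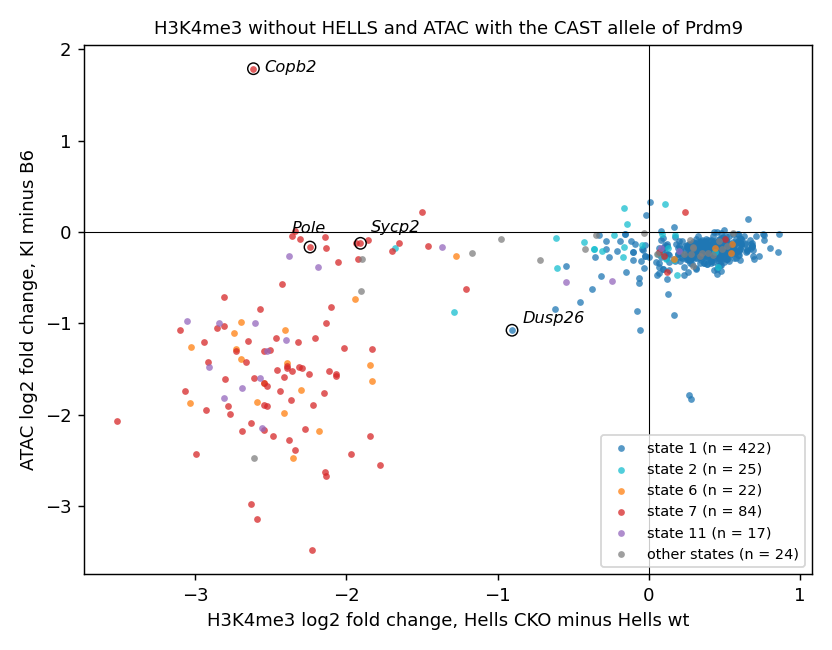
ATAC log2 difference, KI minus B6 (y axis), against H3K4me3 log2 difference, Hells CKO minus Hells wt (x axis), for 594 shared promoter peaks, 1 point a peak, coloured by chromatin state. State 1 sits near 0.4 and -0.2, state 7 mostly low on both axes; Copb2 is high on the y axis, and Sycp2 and Pole are low on the x axis alone.

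Atp1b1 had ATAC of 17.4 and 12.3 CPM in B6 and 4.23 and 3.75 in KI, a log2 difference of -1.89 ± 0.22 (SE). Ighv5-9-1 had 25.5 and 19.0 CPM in B6 and 2.04 and 1.94 in KI, a difference of -3.48 ± 0.22 (SE; edgeR quasi-likelihood test, adjusted p = 5.17e-07). Neither gene's groups overlapped. Log2 differences were -2.97 at Gm49193, -2.43 at Rnf17 and -2.24 at Tas2r130, a taste receptor gene, and Rrp1b passed too, at 15.5 and 11.6 CPM in B6 and 3.12 and 3.65 in KI. In state 1 the largest differences, chosen after their values were seen, were at Rnu1a1, a U1 RNA gene with near-identical copies (-1.83), and Zfp35, a zinc-finger gene (-1.79), with H3K4me3 differences of 0.28 and 0.27 in Hells CKO that did not pass.

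Copb2, which encodes a coatomer subunit, went the other way. Its upstream peak (chr9:98576812-98580793, state 7) had H3K4me3 of 9.42 CPM in Hells wt, 20.7 in Spo11/+, 16.3 and 16.8 in Spo11/Spo11, and 2.02, 1.65 and 0.917 in Hells CKO, a log2 difference of -2.61 ± 0.33 (SE). ATAC was 5.32 and 2.67 CPM in B6 and 14.8 and 12.7 in KI, a log2 difference of 1.79 ± 0.28 (SE; edgeR quasi-likelihood test, adjusted p = 0.000478). The KI values were the higher ones. With the ATAC region nearest the peak centre in place of the one with the largest overlap, no shared peak was called higher. H3K9ac there was 5.13, 19.96 and 5.90 CPM in B6 and 39.1 and 42.7 in KI, and its difference of 2.01 ± 0.62 (SE) did not pass (edgeR quasi-likelihood test, adjusted p = 0.125).

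The states with lower H3K4me3 divided further by the distance between the het and CKO peak centres, which are the midpoints of merged peaks. In states 6, 7 and 11, 112 peaks had het and CKO centres within 500 bp of each other and 57 had them farther apart, a distance chosen after the values were seen. Where centres coincided, both lay far from the TSS (medians 1467 and 1417 bp), H3K4me3 was lower at 106 of 110, Hells ATAC at 34 of 68 and KI ATAC at 74 of 90 (medians -2.47, -1.53 and -1.54). Where they were apart, the het centre lay 1361 bp and the CKO centre 466 bp from the TSS. H3K4me3 was then lower at 28 of 47, Hells ATAC at 1 of 29 and KI ATAC at 6 of 33 (medians -1.72, -0.18 and -0.21). In state 7, 52 of 62 coinciding peaks and 5 of 22 separate ones were lower in KI ATAC, while H3K4me3 was lower at 67 of 68 and 24 of 31. Where centres were apart, the ATAC region with the largest overlap can be the promoter and not the site at the het centre. The part of this in the ATAC counts was not tested.

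**Figure D5:**
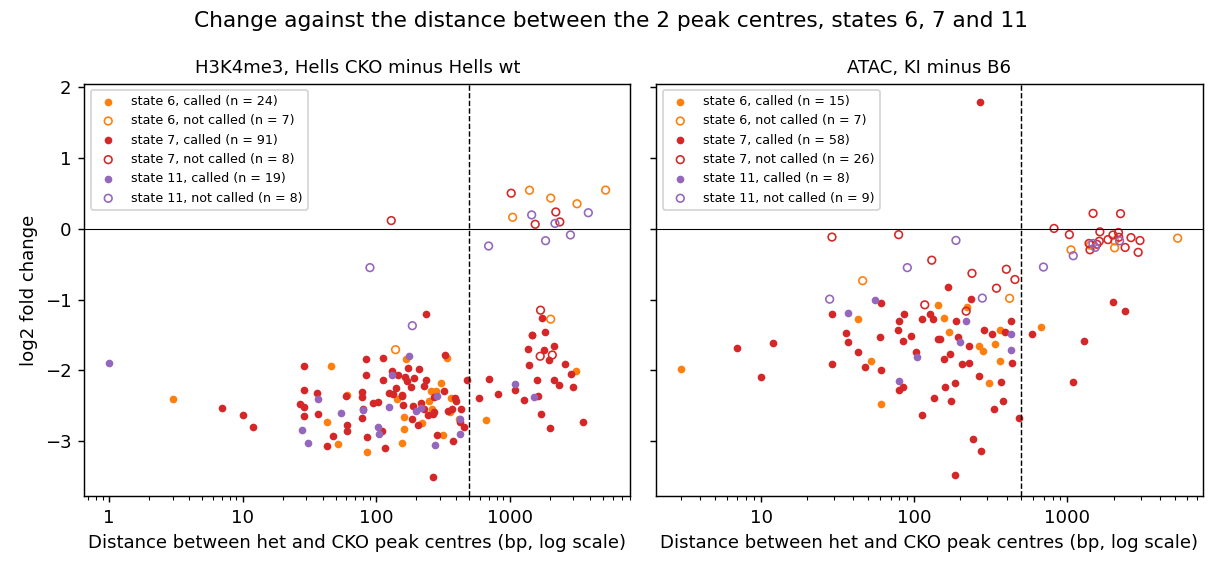
Log2 difference of H3K4me3 (left, Hells CKO minus Hells wt) and ATAC (right, KI minus B6) on the y axis against the distance between het and CKO peak centres (x axis, bp, log scale) for states 6, 7 and 11; filled points passed the test and the dashed line marks 500 bp. Left of the line 106 of 110 peaks were lower in H3K4me3 and 74 of 90 in ATAC; right of it 28 of 47 and 6 of 33.

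Sycp2, an axial element protein of meiotic chromosomes, and Pole, the catalytic subunit of DNA polymerase epsilon, show the separate form. At Sycp2 the het centre lay 2455 bp inside the gene and the CKO centre 118 bp from a TSS; at Pole the distances were 2469 and 131 bp. The Sycp2 region at the het peak had H3K4me3 of 3.47 CPM in Hells wt, 4.86 in Spo11/+, 2.90 and 3.69 in Spo11/Spo11, and 0.964, 1.14 and 0.697 in Hells CKO. Hells CKO was below the rest, by a log2 difference of -1.91 ± 0.40 (SE; edgeR quasi-likelihood test, adjusted p = 0.00831). The ATAC region that overlapped the peak was the promoter itself, at 152 and 126 CPM in B6 and 142 and 113 in KI, and its difference of -0.12 did not pass. Pole had H3K4me3 of 5.10 CPM in Hells wt and 1.21, 1.14 and 0.880 in Hells CKO, a log2 difference of -2.24 ± 0.30 (SE; edgeR quasi-likelihood test, adjusted p = 0.000717). Its promoter ATAC was 65.3 and 49.7 CPM in Hells wt and 57.9, 49.4 and 47.4 in Hells CKO, which overlap.

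H3K9ac passed the test at few shared peaks. In state 7 its median was 5.06, 19.3 and 5.25 CPM in the B6 libraries, 2.59 and 3.09 in KI and 13.5 in Spo11/Spo11. KI was below every other library, while B6 replicate 2 was the highest library. The median log2 difference, KI minus B6, was -1.74 in state 7 and 0.14 in state 1. In state 7, 86 of 99 regions were below 0. Atp1b1, low in H3K4me3 and ATAC, had a higher mean H3K9ac in KI: 36.1 CPM (SD 1.53, n = 2) against 22.5 in B6 (SD 14.4, n = 3). By edgeR's quasi-likelihood test 9 of 618 shared peaks were lower (1.46%, beside 0.208% of all 91909 regions), 1 of them in state 7 and 6 in state 1. None was higher, where 12.1% of all regions were; 23 had an unadjusted p below 0.05 in that direction and DESeq2 called 12. Without B6 replicate 2, 138 shared peaks were lower and 172 higher, 61 and 10 of them in state 7. Without B6 replicate 3 or either KI replicate none was lower. The labels list B6 replicates 1 and 3 among the libraries behind the chromatin states, so these values by state are not independent of them.

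Of the 9, Dusp26 had H3K9ac of 21.3, 29.97 and 22.3 CPM in B6 and 9.90 and 8.35 in KI. The groups did not overlap, and the log2 difference was -1.42 ± 0.23 (SE; edgeR quasi-likelihood test, adjusted p = 0.0172). Its ATAC was also lower, at 7.34 and 6.61 CPM in KI against 15.1 and 14.3 in B6. The others included Mgat4b (-1.44), 4930477E14Rik (-1.94), Cnr1, the cannabinoid receptor (-0.96), and Kdm2b, a histone demethylase that binds CpG islands (-0.61). Cnr1 was also the 1 state 7 peak with centres within 500 bp that had no H3K4me3 call: its region, which reaches the promoter, had 34.2 CPM in Hells wt and 34.6, 34.5 and 41.99 in Hells CKO.

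In the F1 hybrid, where both copies share a nucleus, shared promoter peaks differed between alleles at shares near those of all regions. Of 596 regions tested by ATAC, 42 were higher on the B6 copy (7.05%, beside 9.02% of all 70654 regions) and 49 on the CAST copy (8.22%, beside 7.17%), by edgeR's quasi-likelihood test with library as a block. These shares over all shared peaks are near the background, and DESeq2 called 7 and 9. State 7 had 5 of 90 higher on the B6 copy (5.56%) and 12 on the CAST copy (13.3%), and the difference from the other states was not tested. Gm49193 had 115 and 89 B6 counts against 15 and 15 CAST counts, a log2 difference, CAST minus B6, of -2.73 ± 0.30 (SE; edgeR quasi-likelihood test, adjusted p = 1.7e-18). Its H3K9ac, in 1 library, had 48 B6 and 2 CAST counts, a B6 share of 96% (exact binomial 95% interval 86.3% to 99.5%, counting error only). At Ampd1, encoding the AMP deaminase of muscle, ATAC gave 29 and 23 B6 counts against 123 and 97 CAST counts, a log2 difference of 2.10 ± 0.26 (SE), and the H3K9ac B6 share was 15.9% (10.1% to 23.3%). Either library alone gave the same direction at all 42 and all 49.

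Other differences between the copies lay at Lztfl1, a regulator of ciliary traffic (0.88), Gm11405 (1.64), Rims2 (1.21) and Gm30085 (1.28) on the CAST side, and at Slc4a1ap (-2.38), Hist1h2bm (-0.55), Ankrd46 (-0.98) and Rpp38, a ribonuclease P subunit (-0.58), on the B6 side. Lztfl1 had 1050 and 865 B6 counts against 1788 and 1652 CAST counts, while its H3K9ac B6 share was 49.1% (45.4% to 52.7%). At Gm11405 the H3K9ac B6 share was 62.5% (51% to 73.1%), on the side opposite to its ATAC. Rims2 (28.3%, 17.5% to 41.4%) and Gm30085 (41%, 32.2% to 50.3%) had shares on the CAST side. Over 571 shared peaks the median H3K9ac B6 share was 50.8%, beside 50.9% over 51261 autosomal regions. In state 7 the middle of the distribution was wider, from 43.7% to 57.2% (quartiles, 79 regions), than in state 1, from 48.4% to 53.7%, and over all autosomal regions it ran from 44.4% to 57.6%. The part of counting error in these widths was not tested.

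HELLS peaks lay at shared peaks of state 1. HELLS peaks of KI testis overlapped 56 of the 671 shared peaks (8.35%, exact binomial 95% interval 6.37% to 10.7%), of which 55 were among the 439 of state 1 (12.5%) and none among the 99 of state 7, which allows a share of up to 3.66%. The share was 11% at CKO-only promoters, 0.393% at het-only promoters and 4.55% over all TSS windows. These testes carry the CAST allele of Prdm9, and the Prdm9 allele behind the het and CKO lists is not stated with them in the sources used here. At the HELLS peaks on shared promoters the median was 52 and 45 counts in the HELLS libraries, 10 in IgG and 15 in input. Srsf7, a splicing factor, had 161 and 111 HELLS counts against 17 in IgG and 35 in input, and Nbn had 104 and 107 against 20 and 19. Rbbp4, a histone chaperone, Atad2, a chromatin ATPase, and Ints8, an Integrator subunit, were the others with the highest HELLS counts.

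Few genes of the lists examined held a shared peak, and all but Sycp2, Pole (state 7), Trip13, Pms2 (state 6) and Cpsf6 (state 2) held it in state 1. Of 20780 protein-coding autosomal genes 602 (2.9%) had one, and 7888 had a CKO-only peak. For meiotic prophase and recombination it was 4 of 38 (10.5%), and for DNA damage and homologous repair 5 of 38 (13.2%). CKO-only peaks lay at 31 and 30 of these genes, at 43 of 55 ribosomal protein genes and at 26 of 29 RNA processing genes. They lay at 6 of 24 pachytene and spermatid genes and 2 of 14 Sertoli genes. The shared peak counts were 4 of 34 for cell cycle and replication, 2 of 24 for pachytene and spermatid, 2 of 29 for RNA processing, 2 of 48 for chromatin, 2 of 55 for ribosomal proteins and 1 of 21 for spermatogonia. None of 14 Sertoli genes and none of 18 Leydig, stromal, endothelial or blood genes held one.

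Hells is one of the 4 meiotic genes. Its promoter, at the gene that was targeted, had H3K4me3 of 54.8 CPM in Hells wt, 70.6 in Spo11/+, 71.2 and 76.6 in Spo11/Spo11, and 89.4, 57.5 and 73.0 in Hells CKO. The groups overlapped, and a promoter mark does not test the deletion. Zcwpw1, a reader of the marks PRDM9 makes, had 96.9 CPM in Hells wt and 146, 98.6 and 104 in Hells CKO. Trip13, the ATPase that strips HORMA proteins from chromosome axes, lies in state 6 with centres 2032 bp apart and had 1.28 CPM in Hells wt and 0.404, 0.516 and 0.660 in Hells CKO; its log2 difference of -1.28 did not pass.

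The repair genes were Nbn, Rbbp8, which starts end resection, Fancm, a DNA translocase, Rpa3, a subunit of the single-strand binding complex, and Pms2, a mismatch repair protein. Their H3K4me3 differences ran from 0.44 to 0.58 and none passed. Nbn had 36.8 CPM in Hells wt, 49.7 in Spo11/+, 46.7 and 49.6 in Spo11/Spo11, and 65.6, 42.1 and 57.5 in Hells CKO, with the groups overlapping. Among the rest were Ddx4, the germ-cell RNA helicase (-0.21), Mybl1, the pachytene transcription factor, with 2 shared peaks (0.31), Crem (0.48), Mcm3 (0.21), Cdc25c (0.31), Plk1 (0.39), Srsf7 (0.57), Cpsf6 (0.44), Ehmt1 (0.49), Suv39h2 (0.27), Rpl4 (0.66) and Rpl34 (0.65), none of which passed. Sycp2 and Pole were the 2 listed genes whose shared peak was called lower in H3K4me3.

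Level and position marked the extremes. Per kb, the highest H3K4me3 of the HELLS-competent libraries was at Akap8 (29.6 CPM per kb), 1110059G10Rik (27.97) and Sec62 (27.3), all in state 1, and the lowest was at L1td1 (1.28, state 7) and Son (1.57, state 6). At Umad1, Cenpl and Sgcb both centres lay closest to an annotated TSS. Sgcb (sarcoglycan beta) had its het centre 4 bp and its CKO centre 8 bp from different TSSs, 3127 bp apart, and stood at 2.34 CPM of H3K4me3 in Hells wt and 0.622, 0.722 and 0.403 in Hells CKO, a log2 difference of -2.01 ± 0.43 (SE; edgeR quasi-likelihood test, adjusted p = 0.00887). Of the 143 peaks with lower H3K4me3, 106 (74.1%) were at protein-coding genes and 6 (4.2%) had the wider peak in the CKO list. Of the 502 without a call the figures were 443 (88.2%) and 426 (84.9%). Protein-coding TSSs on both strands lay in reach of 68 shared peaks (10.1%), beside 10.8% of CKO-only and 0.721% of het-only promoter peaks.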

How the data were processed

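The authors deposited raw counts per region for H3K4me3, ATAC, H3K9ac and HELLS ChIP, 2 DMC1 peak lists and a list of 11 chromatin states. For the F1 hybrid the authors deposited estimated counts, which split the reads of each region between the B6 and CAST alleles. The submitters' processing notes name BWA 0.7.15, Bowtie 0.12.9, MACS 1.4.2, CASAVA and mm10, with no role for each. The members and gene lists were chosen with earlier results of these data known.

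A table's region stood for a shared peak when it had the largest overlap with the het peak, so it can be the promoter beside the break site. Each whole table was fitted with edgeR 4.0.16 (R 4.3.3; filterByExpr, TMM scaling, quasi-likelihood test, Benjamini-Hochberg adjustment, threshold 0.05). CPM values are TMM-scaled. F1 counts were rounded, and regions needed 20 allele counts. DESeq2 1.42.0 was an alternative, with others on scaling, filters, windows and left-out libraries. Group columns of the B6 and KI ATAC tables name the strain and not the sample, and 10 columns that match no sample were not used. Repeated regions, 56 in all, were removed from the Hells ATAC counts. Named genes were the lowest p per comparison and direction, all listed genes, and extremes of H3K4me3 level, centre distance and HELLS counts. HELLS was ranked by mean counts, since its table holds counts and no peak score. Other work used Python 3.11.15, pandas 2.3.3 and scipy 1.17.1. Fits were checked on simulated counts. Intervals cover counting error only. Some items withheld for evaluation are not reported here.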

Additional observations from a re-analysis of the deposited data

How the results depend on the processing

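Of 103 comparisons of a count under another setting, 78 stayed within 1.5 times, those of 0 with 0 included, and 25 moved. The number of shared peaks with lower H3K4me3 in Hells CKO stayed within that limit under every setting of the fit, but not under a stricter overlap rule. Peaks higher in H3K4me3 numbered 33 with DESeq2, 1 against the mean of the HELLS-competent groups, and 0 to 105 with a library left out (105 without Hells CKO replicate 2). Lower Hells ATAC gave 76 with library series as a block and 0 to 50 with a library left out. KI ATAC gave 64 to 225 lower and 1 to 5 higher with a library left out, and 0 higher with the region nearest the peak centre. H3K9ac in KI gave 72 lower and 12 higher with DESeq2, 16 lower with library size alone, and 0 to 138 lower and 0 to 172 higher with a library left out. F1 ATAC with DESeq2 gave 7 higher on the B6 copy and 9 on the CAST copy. By peak centre, 166 peaks were in state 7. At least 1 of the 20 words lay in 39 peaks, and in 68 with 500 bases, both settings added after seeing the data. The causes were not tested. With at least 50% of the het peak covered, the rule kept 466 peaks, and H3K4me3 was lower at 18 of 423, Hells ATAC at 6 of 396 and KI ATAC at 12 of 415. No paired analysis was possible because the labels carry no replicate numbers to pair by, and the block used for Hells ATAC is the library series. The H3K4me3 fit with library series as a block was not run, since it leaves no residual degrees of freedom.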
